A study of Homo sapiens with 12 samples.

Results

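Interferon-stimulated genes were examined in MDA-MB-231 cells, an established human triple-negative breast cancer (TNBC) line, that carried either wild-type glucocorticoid receptor (wt-GR) or the S134A-GR mutant. The 39 genes were taken by symbol from a list of commonly used interferon-stimulated genes, and 39 of 39 were found among the 19907 symbols of the files. Of these, 36 had a mean normalized count of at least 20 over the 12 libraries and were given fold changes. IFI27, RSAD2 and CMPK2 did not and are described by level alone.

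RNA was sequenced from 4 groups of 3 libraries, which were wt-GR with vehicle, wt-GR with TGFβ1, S134A-GR with vehicle and S134A-GR with TGFβ1. All cells were kept for 18 h in IMEM with 1% DCC (charcoal-stripped serum) before vehicle or TGFβ1 at 10 ng/mL was given for 6 h. In S134A-GR cells, CRISPR/Cas9 knock-in had replaced a serine of GR with alanine on both alleles, and wt-GR cells had been through the same procedure without the knock-in. Each line grew from 1 clone, so genotype and clone cannot be told apart in any comparison of the lines, and nothing in the labels says that the 3 libraries of a group came from separate cultures, so p-values measure the spread between these libraries.

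Type I and type III interferons bind receptors that activate the kinases JAK1 and TYK2, which phosphorylate STAT proteins. STAT2 and IRF9 are subunits of the complex ISGF3, which binds the interferon-stimulated response element (ISRE) in the promoters of target genes. The targets encode sensors of viral RNA, enzymes and membrane proteins that restrict viruses, and regulators that amplify or end the response. Many cancer cells transcribe part of this set without added interferon, and the genes were measured here in cells that received none.

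The libraries held 56362036 to 129832227 reads, and a level of 3 reads, taken as the limit of detection, came to 2.15 to 4.89 normalized counts, a limit that covers counting error only. These totals are above the average number of reads per sample that the study states. Whether both mates of a pair were counted is not stated, so 3 reads may come from fewer fragments. Of the markers listed as present in the line, VIM averaged 468823 and AXL 117112 normalized counts over the 12 libraries. Of those listed as absent or low, ESR1 averaged 3.26 and CDH1 6.17, whereas ERBB2 at 9059 and EPCAM at 690.0 went against the list, and PGR was not analysed here. For other cell types, PTPRC averaged 3.95, near the limit of detection, and the endothelial marker PECAM1 1097. Under vehicle several of these markers had no overlap between the libraries of wt-GR and S134A-GR cells, with means of EPCAM at 1024 ± 64.6 and 378 ± 51.7, the leukocyte marker CD14 at 30.4 ± 6.12 and 4.62 ± 2.55, and the endothelial marker CDH5 at 187 ± 31.1 and 19.0 ± 7.61. Means of ERBB2 (8891 ± 35.0 and 10494 ± 113) and PECAM1 (1358 ± 83.8 and 1141 ± 54.0) were closer, also without overlap. So were those of CAV1 (69976 ± 1044 and 43004 ± 287) and CD44 (43918 ± 608 and 41884 ± 749), both listed as present in the line. Their part in the results below was not tested. NR3C1, the gene of GR, was 11771 ± 1186 and 10775 ± 478 in wt-GR cells under vehicle and TGFβ1 and 8815 ± 259 and 8692 ± 612 in S134A-GR cells (SD, n = 3), lower in S134A-GR cells at −0.41 (SE 0.0665, adjusted p = 0.00012) and −0.31 (SE 0.0665, adjusted p = 0.00134) by limma, and a gene count does not show the edited base.

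Promoter sequences were read to see which of the genes hold an ISRE. RefSeq entries (GRCh38.p14) were matched by symbol for 32 of the 39 genes, and IFIT2, IFITM2, MX2, OAS2, OASL, IRF7 and USP18 were not matched. In the 250 bases before the start site, the ISRE core, searched as a GAAA followed after any 2 bases by another GAAA, was found on either strand in 20 of 32 genes (62.5%), against 3.71% of all 27305 genes in the same table. The gamma-activated site of interferon-γ targets, written TTCNNNGAA, was found in 9 of 32 (28.1%) against 8.09% of all genes, and 5 genes held both. The 6 promoters below belong to the genes with the largest differences between the lines under vehicle among those with an ISRE match. They are printed on the strand of the gene, from 5′ to 3′ up to the base before the start site, with every ISRE match in capitals.
BST2 (chr19:17405631-17405880, minus strand): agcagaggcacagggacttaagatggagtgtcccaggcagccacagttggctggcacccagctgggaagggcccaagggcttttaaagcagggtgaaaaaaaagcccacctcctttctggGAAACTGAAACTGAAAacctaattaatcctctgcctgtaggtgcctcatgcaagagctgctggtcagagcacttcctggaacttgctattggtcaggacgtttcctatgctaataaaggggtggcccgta
EPSTI1 (chr13:42992242-42992491, minus strand): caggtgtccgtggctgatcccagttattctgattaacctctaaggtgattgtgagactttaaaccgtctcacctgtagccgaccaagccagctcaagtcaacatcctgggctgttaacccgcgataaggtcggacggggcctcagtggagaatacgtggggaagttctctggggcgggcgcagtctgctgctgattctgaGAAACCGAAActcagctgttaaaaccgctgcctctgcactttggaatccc
IFIT3 (chr10:89327747-89327996, plus strand): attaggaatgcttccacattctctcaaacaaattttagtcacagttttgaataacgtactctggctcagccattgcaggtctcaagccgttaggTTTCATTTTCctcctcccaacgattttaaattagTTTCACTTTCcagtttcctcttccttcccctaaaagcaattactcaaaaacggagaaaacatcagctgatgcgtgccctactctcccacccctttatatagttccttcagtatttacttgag
IFIT1 (chr10:89392373-89392622, plus strand): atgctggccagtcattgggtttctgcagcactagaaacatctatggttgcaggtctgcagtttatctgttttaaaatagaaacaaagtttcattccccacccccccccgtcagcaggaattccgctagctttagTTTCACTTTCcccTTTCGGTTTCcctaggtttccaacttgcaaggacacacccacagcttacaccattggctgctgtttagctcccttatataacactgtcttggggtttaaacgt
IFI6 (chr1:27672193-27672442, minus strand): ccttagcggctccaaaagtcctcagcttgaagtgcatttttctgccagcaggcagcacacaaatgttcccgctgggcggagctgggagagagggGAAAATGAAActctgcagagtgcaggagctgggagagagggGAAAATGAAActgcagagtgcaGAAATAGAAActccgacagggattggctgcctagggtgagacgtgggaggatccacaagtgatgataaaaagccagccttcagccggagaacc
IFI44L (chr1:78620198-78620447, plus strand): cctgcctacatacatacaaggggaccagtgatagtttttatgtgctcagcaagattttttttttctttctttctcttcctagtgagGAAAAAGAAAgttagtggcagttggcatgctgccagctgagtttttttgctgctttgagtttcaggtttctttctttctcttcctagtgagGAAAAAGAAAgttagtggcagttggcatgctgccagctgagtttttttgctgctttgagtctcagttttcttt

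In BST2 the 2 matches overlap and lie 114 to 130 bases upstream of the start. Those of IFIT3 and IFIT1 read on the opposite strand, 112 to 156 and 93 to 116 bases upstream, and IFIT3 has 2 entries in the table, of which 1 is shown. EPSTI1 holds 1 match, IFI6 3 and IFI44L 2. The first 4 of these genes were lower in S134A-GR cells and the last 2 were higher, so an ISRE core stood in promoters of both kinds. A match is a description of these letters and not evidence of binding.

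In the comparison of the lines under vehicle, which asks how the genes stand without a stimulus, most members were lower in S134A-GR cells, some by a large factor. BST2, which encodes the membrane protein tetherin that holds budding virus at the cell surface, stood at 6.35% of its mean level in wt-GR cells. MX2, EPSTI1, OAS1 and IFIT2 stood at 30.5%, 28.8%, 41.2% and 42.9%. A smaller set was higher, led by IFI6 at 176% and IFI44L at 167% of the wt-GR level. Of 36 members, 21 were lower and 7 higher at FDR under 0.05 (limma), 28 in all, where 51.5% of all 18579 genes tested were called, 26.5% lower and 25.0% higher. Among the 14425 genes with a mean of at least 20, as the members had, 61.8% were called, 31.8% lower and 30.0% higher. A change of at least 1 log2 unit as well was seen in 5 members, all lower, against 4.45% of all genes lower and 5.06% higher. For this rule the shares among genes with a mean of at least 20 were not computed. The median log2 fold change of the members was −0.20, where that of all genes tested was 0.02. The values are of bulk RNA, in which fewer cells with a transcript and less transcript per cell cannot be told apart.

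Under TGFβ1 the picture between the lines was similar, with 17 members lower and 8 higher in S134A-GR cells, where 48.8% of all genes were called, 25.7% lower and 23.1% higher. Among genes with a mean of at least 20 these shares were 58.7%, 30.7% and 28.0%. Of the 21 members lower under vehicle, 14 were also lower under TGFβ1 (66.7% of the first list and 82.4% of the second), and all 7 that were higher under vehicle were higher under TGFβ1. OAS2 was called higher, and IRF7, ISG20 and XAF1 lower, under TGFβ1 but not under vehicle, and for none of these genes did the difference between the treatments pass its own test (adjusted p = 0.353 to 0.888, limma). Without TGFβ1 library 2 of S134A-GR cells the members called higher under TGFβ1 numbered 5. The 2 comparisons share no library, and across the 36 members their log2 fold changes had a Pearson correlation of 0.964. This is a correlation across genes, which are not independent replicates, and both comparisons are of the same 2 clones. By at least 1 log2 unit, 6 members were lower (BST2, MX2, EPSTI1, IRF7, IFIT2 and OAS1) and 1 higher (IFI44L), against 4.58% and 3.88% of all genes. The shares among genes with a mean of at least 20 were again not computed for this rule.

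**Figure D1:**
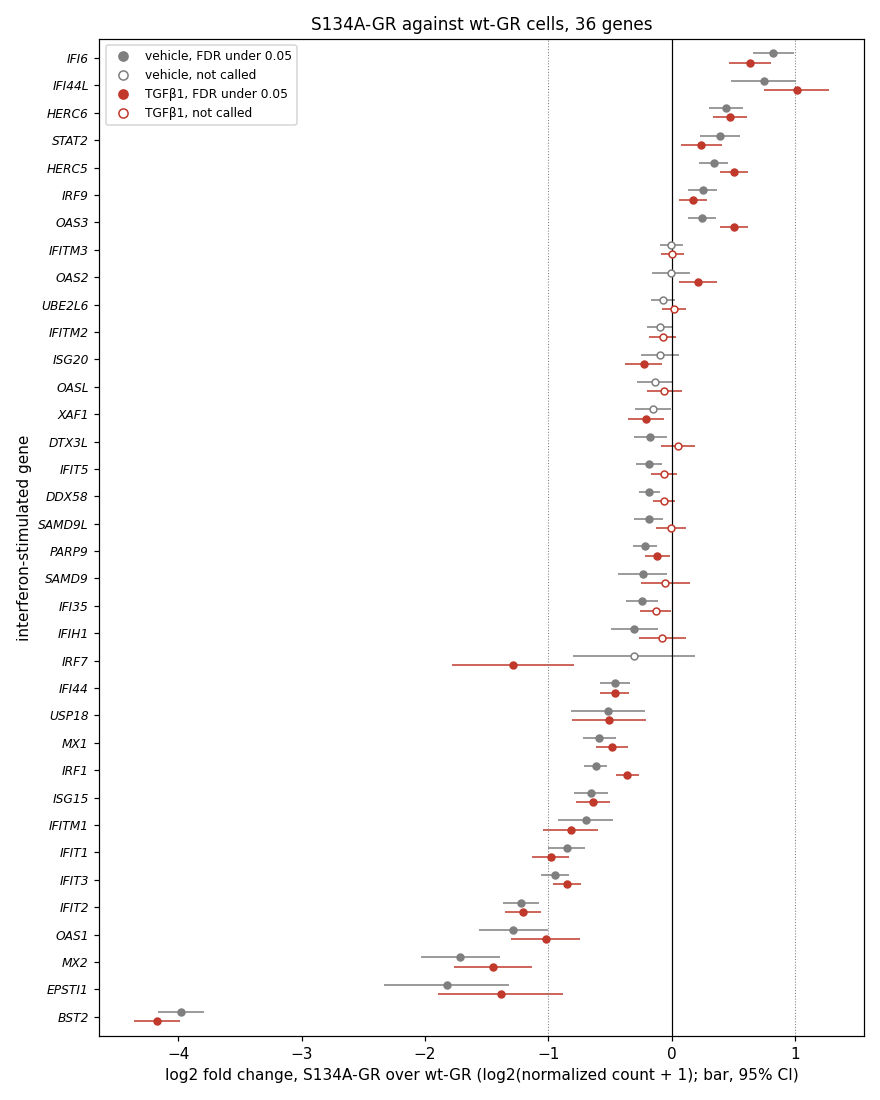
Log2 fold changes of S134A-GR over wt-GR cells (x axis, log2 of the normalized count plus 1, with 95% confidence intervals) for the 36 members (y axis), under vehicle (grey) and TGFβ1 (red), with filled points for FDR under 0.05. BST2 stands apart at −3.98 and −4.17, and IFI6 and IFI44L lie at the other end.

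TGFβ1 for 6 h lowered a large share of the genes in both lines. In wt-GR cells 21 members fell and 1 (IRF7) rose, where 21.0% of all genes tested were called, 9.82% falling and 11.2% rising (26.1%, 12.1% and 14.0% of genes with a mean of at least 20). In S134A-GR cells 17 members fell and 1 (SAMD9) rose, where 18.7% of all genes were called, 8.69% falling and 10.0% rising (23.5%, 10.8% and 12.7%). The median log2 fold change of the members was −0.23 in wt-GR and −0.17 in S134A-GR cells, against −0.005 and −0.01 over all genes tested. The strongest falls in wt-GR cells were those of MX2, OAS1, OAS2 and IFIT2, to 52.8%, 56.7%, 56.8% and 57.5% of vehicle. None of the falls reached a log2 fold change of −1.

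The genes that fell in the 2 lines overlapped. All 17 that fell in S134A-GR cells were among the 21 of wt-GR cells (81.0% of the larger list), and HERC5, HERC6, IFI35 and UBE2L6 were called in wt-GR cells alone. These comparisons share no library, and the log2 fold changes of 32 of 36 members had the same sign (Pearson 0.79 and Spearman 0.845 across genes). The response was tested for a difference between the lines, and limma called 0 of 36 members at FDR under 0.05, where 0.414% of all genes were called. At an unadjusted p under 0.05 there were 6 members (IRF1, OAS3, IRF7, DTX3L, SAMD9L and OAS2), the lowest adjusted p was 0.124 (IRF1), edgeR's quasi-likelihood test called 0 with 5 at an unadjusted p under 0.05, and DESeq2 called 1 (IRF1, adjusted p = 0.0154) with 7. The difference, S134A-GR minus wt-GR, was positive for 26 members and negative for 10. This count of signs is across genes, which are not independent replicates. It was not tested, and the share of all genes with a positive difference was not computed.

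**Figure D2:**
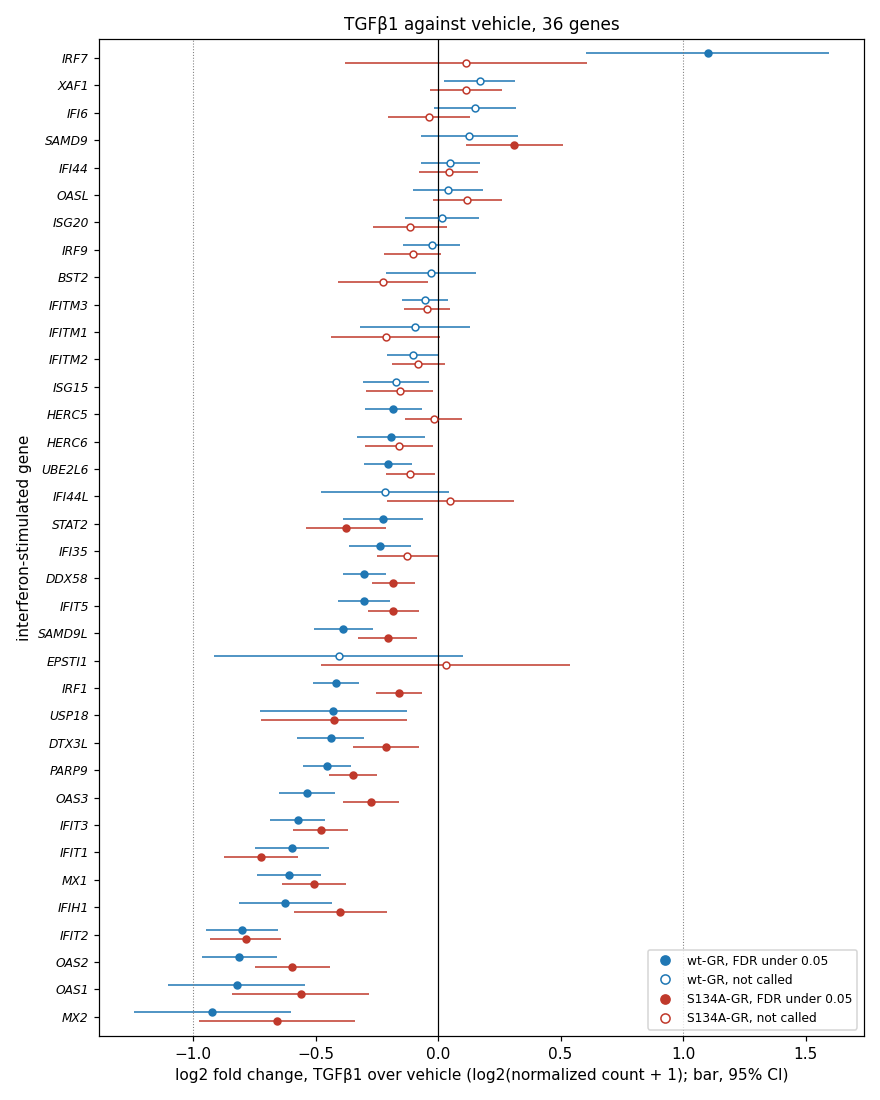
Log2 fold changes of TGFβ1 over vehicle (x axis, log2 of the normalized count plus 1, with 95% confidence intervals) for the 36 members (y axis) in wt-GR (blue) and S134A-GR cells (red), with filled points for FDR under 0.05. In wt-GR cells the values run from MX2 (−0.92) at the bottom to IRF7 (1.10), and in S134A-GR cells from IFIT2 (−0.79) to SAMD9 (0.31).

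The transcription factors of the response did not move together. STAT2, the ISGF3 subunit with the transactivation domain, had normalized counts of 5390.0, 5259 and 5053 in wt-GR cells under vehicle, 4680.3, 4243 and 4509.7 in wt-GR cells under TGFβ1, 6829.8, 6487 and 7308 in S134A-GR cells under vehicle and 4542, 5647 and 5757 in S134A-GR cells under TGFβ1. S134A-GR cells under vehicle were above the other 9 libraries, and S134A-GR cells under TGFβ1 overlapped both wt-GR groups. The STAT2 log2 fold change of S134A-GR over wt-GR was 0.39 (SE 0.0762, adjusted p = 0.000583) under vehicle and 0.24 (SE 0.0762, adjusted p = 0.0174) under TGFβ1. That of STAT2 for TGFβ1 over vehicle was −0.23 (SE 0.0762, adjusted p = 0.0497) in wt-GR and −0.38 (SE 0.0762, adjusted p = 0.0029) in S134A-GR cells. The STAT2 fall in wt-GR cells was no longer called when any of 8 libraries was left out (adjusted p = 0.053 to 0.168). Its difference under TGFβ1 was lost without TGFβ1 library 2 of wt-GR or TGFβ1 library 2 or 3 of S134A-GR cells (0.0753 to 0.0892), and its fall in S134A-GR cells in a fit of those groups alone (0.0605). IRF9, the DNA-binding subunit of ISGF3, was 2726 ± 39.1 and 2678 ± 144 in wt-GR cells under vehicle and TGFβ1 and 3242 ± 46.2 and 3019 ± 220.4 in S134A-GR cells (SD, n = 3 here and below), higher in S134A-GR cells at 0.25 (SE 0.0538, adjusted p = 0.0013) under vehicle and 0.17 (SE 0.0538, adjusted p = 0.0164) under TGFβ1, the second of which was lost without TGFβ1 library 2 of wt-GR or of S134A-GR cells (adjusted p = 0.0852 and 0.0907).

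IRF1, a factor that binds the same kind of element and is induced mainly by interferon-γ, read 4191, 4159.8 and 4336 in wt-GR cells under vehicle, 3099, 3193 and 3201 in wt-GR cells under TGFβ1, 2656, 2715 and 2898 in S134A-GR cells under vehicle and 2418, 2429.9 and 2552 in S134A-GR cells under TGFβ1. The 4 groups did not overlap, with wt-GR under vehicle highest and S134A-GR under TGFβ1 lowest. The IRF1 log2 fold change of S134A-GR over wt-GR was −0.62 (SE 0.0433, adjusted p = 4.25e-08) under vehicle and −0.36 (SE 0.0433, adjusted p = 9.02e-06) under TGFβ1. That of IRF1 for TGFβ1 over vehicle was −0.42 (SE 0.0433, adjusted p = 7.37e-06) in wt-GR and −0.16 (SE 0.0433, adjusted p = 0.0189) in S134A-GR cells. The fall in S134A-GR cells was lost without vehicle library 3 or TGFβ1 library 1 or 2 of that line (adjusted p = 0.0605 to 0.1). IRF7, the factor that amplifies type I interferon transcription, had 125, 100.4 and 86.3 in wt-GR cells under vehicle, 283, 187 and 205 in wt-GR cells under TGFβ1, 68.8, 85.2 and 98.0 in S134A-GR cells under vehicle and 94.2, 66.8 and 116 in S134A-GR cells under TGFβ1. The 3 wt-GR libraries under TGFβ1 were above the other 9, which overlapped one another. The IRF7 log2 fold change of S134A-GR over wt-GR was −0.30 (SE 0.23, adjusted p = 0.295) under vehicle and −1.29 (SE 0.23, adjusted p = 0.000322) under TGFβ1. That of IRF7 for TGFβ1 over vehicle was 1.10 (SE 0.23, adjusted p = 0.00336) in wt-GR and 0.11 (SE 0.23, adjusted p = 0.806) in S134A-GR cells. This gene had few reads, and 88.2% of its 75-base windows also match alternate scaffolds of GRCh38, so reads could be lost or kept depending on the sequences aligned to.

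The RNA sensors fell with TGFβ1 in both lines. DDX58 encodes RIG-I, which recognizes 5′-triphosphate RNA, and read 4277, 4255 and 4227 in wt-GR cells under vehicle, 3507, 3344 and 3496 in wt-GR cells under TGFβ1, 3585, 3807 and 3870.0 in S134A-GR cells under vehicle and 3405, 3268 and 3235 in S134A-GR cells under TGFβ1. Vehicle groups were separate, and the groups under TGFβ1 overlapped below both. The DDX58 log2 fold change of S134A-GR over wt-GR was −0.18 (SE 0.0406, adjusted p = 0.00182) under vehicle and −0.06 (SE 0.0406, adjusted p = 0.228) under TGFβ1. That of DDX58 for TGFβ1 over vehicle was −0.30 (SE 0.0406, adjusted p = 9.12e-05) in wt-GR and −0.18 (SE 0.0406, adjusted p = 0.00533) in S134A-GR cells. IFIH1 encodes MDA5, the sensor of long double-stranded RNA, and read 1002, 928 and 769 in wt-GR cells under vehicle, 549.9, 606 and 584 in wt-GR cells under TGFβ1, 747, 696 and 731 in S134A-GR cells under vehicle and 541, 559.9 and 546 in S134A-GR cells under TGFβ1. The libraries of wt-GR cells under vehicle spread widely and stood above the rest. The IFIH1 log2 fold change of S134A-GR over wt-GR was −0.30 (SE 0.0883, adjusted p = 0.0103) under vehicle and −0.08 (SE 0.0883, adjusted p = 0.506) under TGFβ1. That of IFIH1 for TGFβ1 over vehicle was −0.62 (SE 0.0883, adjusted p = 0.00014) in wt-GR and −0.40 (SE 0.0883, adjusted p = 0.00533) in S134A-GR cells. Without vehicle library 1 of wt-GR cells, the difference between the lines under vehicle was −0.22 and missed the threshold (adjusted p = 0.054).

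The ISG15 system attaches the ubiquitin-like protein ISG15 to other proteins, and its genes went in different directions between the lines. ISG15 itself was 3417 ± 333 and 3021 ± 94.7 in wt-GR cells under vehicle and TGFβ1 and 2164 ± 80.0 and 1940.4 ± 90.2 in S134A-GR cells, with log2 fold changes between the lines of −0.66 (SE 0.0632, adjusted p = 9.76e-07) and −0.64 (SE 0.0632, adjusted p = 1.39e-06). HERC5, the main ISG15 ligase in human cells, read 1965, 2117 and 2108 in wt-GR cells under vehicle, 1806, 1867 and 1772 in wt-GR cells under TGFβ1, 2698, 2535 and 2601 in S134A-GR cells under vehicle and 2776, 2428 and 2537 in S134A-GR cells under TGFβ1. All 6 S134A-GR libraries were above all 6 of wt-GR cells. The HERC5 log2 fold change of S134A-GR over wt-GR was 0.34 (SE 0.0545, adjusted p = 0.000115) under vehicle and 0.51 (SE 0.0545, adjusted p = 3.2e-06) under TGFβ1. That of HERC5 for TGFβ1 over vehicle was −0.18 (SE 0.0545, adjusted p = 0.0273) in wt-GR and −0.02 (SE 0.0545, adjusted p = 0.87) in S134A-GR cells. HERC6, a relative of HERC5, read 1696, 1605 and 1519 in wt-GR cells under vehicle, 1396, 1507 and 1313 in wt-GR cells under TGFβ1, 2109, 2208 and 2226 in S134A-GR cells under vehicle and 2069.5, 1969 and 1822 in S134A-GR cells under TGFβ1. Its 4 groups did not overlap, in the order S134A-GR vehicle, S134A-GR TGFβ1, wt-GR vehicle and wt-GR TGFβ1 from the highest. The HERC6 log2 fold change of S134A-GR over wt-GR was 0.44 (SE 0.0643, adjusted p = 4.9e-05) under vehicle and 0.47 (SE 0.0643, adjusted p = 2.76e-05) under TGFβ1. That of HERC6 for TGFβ1 over vehicle was −0.19 (SE 0.0643, adjusted p = 0.046) in wt-GR and −0.16 (SE 0.0643, adjusted p = 0.105) in S134A-GR cells. The HERC5 fall in wt-GR cells was lost without vehicle library 2 or 3 or TGFβ1 library 1 or 3 of that line (adjusted p up to 0.102), and the HERC6 fall without any of 8 libraries (up to 0.185).

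UBE2L6 encodes the conjugating enzyme for ISG15 and read 5548, 5561 and 6091 in wt-GR cells under vehicle, 4844, 4923 and 5148 in wt-GR cells under TGFβ1, 5608, 5482 and 5245 in S134A-GR cells under vehicle and 5013, 5204 and 4876 in S134A-GR cells under TGFβ1. The lines overlapped under both treatments, and wt-GR libraries under TGFβ1 were below those under vehicle. The UBE2L6 log2 fold change of S134A-GR over wt-GR was −0.07 (SE 0.0459, adjusted p = 0.201) under vehicle and 0.02 (SE 0.0459, adjusted p = 0.791) under TGFβ1. That of UBE2L6 for TGFβ1 over vehicle was −0.20 (SE 0.0459, adjusted p = 0.00528) in wt-GR and −0.11 (SE 0.0459, adjusted p = 0.106) in S134A-GR cells. USP18, the protease that removes ISG15 and also restrains the receptor IFNAR2, read 360.1, 275 and 293 in wt-GR cells under vehicle, 244, 232 and 209 in wt-GR cells under TGFβ1, 199.8, 255 and 194 in S134A-GR cells under vehicle and 159, 172 and 149 in S134A-GR cells under TGFβ1. The wt-GR vehicle libraries were highest, and those of S134A-GR cells under TGFβ1 were lowest. The USP18 log2 fold change of S134A-GR over wt-GR was −0.51 (SE 0.139, adjusted p = 0.00661) under vehicle and −0.51 (SE 0.139, adjusted p = 0.00726) under TGFβ1. That of USP18 for TGFβ1 over vehicle was −0.43 (SE 0.139, adjusted p = 0.0424) in wt-GR and −0.43 (SE 0.139, adjusted p = 0.0474) in S134A-GR cells. Both falls with TGFβ1 lay near the threshold and were lost when any of 6 (wt-GR, adjusted p up to 0.171) or 11 libraries (S134A-GR, up to 0.195) was left out, and 14.0% of the 75-base windows of USP18 match another locus, so its reads can be split.

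The 2′-5′-oligoadenylate synthetases make the messenger that activates RNase L. Between the lines they differed in direction, although OAS1, OAS3 and OAS2 lie side by side on chromosome 12. OAS1 read 554, 516 and 577 in wt-GR cells under vehicle, 349, 267 and 318 in wt-GR cells under TGFβ1, 260.1, 205 and 213 in S134A-GR cells under vehicle and 161, 163 and 133.8 in S134A-GR cells under TGFβ1. Its 4 groups fell in steps with no overlap. The OAS1 log2 fold change of S134A-GR over wt-GR was −1.28 (SE 0.131, adjusted p = 1.62e-06) under vehicle and −1.02 (SE 0.131, adjusted p = 1.59e-05) under TGFβ1. That of OAS1 for TGFβ1 over vehicle was −0.82 (SE 0.131, adjusted p = 0.000386) in wt-GR and −0.56 (SE 0.131, adjusted p = 0.00759) in S134A-GR cells. OAS3, which has the highest affinity for long double-stranded RNA, read 5504, 5053 and 4769.9 in wt-GR cells under vehicle, 3449, 3527 and 3582 in wt-GR cells under TGFβ1, 6069, 5850.1 and 6226 in S134A-GR cells under vehicle and 5249.9, 4715 and 5029.5 in S134A-GR cells under TGFβ1. S134A-GR cells under vehicle were highest, and wt-GR cells under TGFβ1 were below the other 9 libraries. The OAS3 log2 fold change of S134A-GR over wt-GR was 0.25 (SE 0.0531, adjusted p = 0.00136) under vehicle and 0.51 (SE 0.0531, adjusted p = 2.52e-06) under TGFβ1. That of OAS3 for TGFβ1 over vehicle was −0.54 (SE 0.0531, adjusted p = 4.79e-06) in wt-GR and −0.28 (SE 0.0531, adjusted p = 0.00204) in S134A-GR cells. OAS2 read 1616, 1604 and 1379 in wt-GR cells under vehicle, 845, 928 and 841 in wt-GR cells under TGFβ1, 1498, 1533 and 1541 in S134A-GR cells under vehicle and 1070.0, 1009 and 949 in S134A-GR cells under TGFβ1. Vehicle groups overlapped, and TGFβ1 groups lay below them with S134A-GR above wt-GR. The OAS2 log2 fold change of S134A-GR over wt-GR was −0.01 (SE 0.0711, adjusted p = 0.96) under vehicle and 0.21 (SE 0.0711, adjusted p = 0.0238) under TGFβ1. That of OAS2 for TGFβ1 over vehicle was −0.81 (SE 0.0711, adjusted p = 1.33e-06) in wt-GR and −0.60 (SE 0.0711, adjusted p = 3.52e-05) in S134A-GR cells. The OAS2 difference between the lines under TGFβ1 was lost without TGFβ1 library 1 or 3 of wt-GR or TGFβ1 library 1 or 2 of S134A-GR cells (adjusted p = 0.055 to 0.0884). OASL, a family member without synthetase activity, was 2414 ± 142 and 2479.8 ± 104 in wt-GR cells under vehicle and TGFβ1 and 2191 ± 80.8 and 2384 ± 214 in S134A-GR cells and was not called in any comparison.

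The MX genes encode dynamin-like GTPases that trap viral nucleocapsids, and both fell with TGFβ1 and were lower in S134A-GR cells. MX1 read 2317, 2135 and 2111 in wt-GR cells under vehicle, 1486, 1359 and 1454 in wt-GR cells under TGFβ1, 1387, 1467 and 1515 in S134A-GR cells under vehicle and 1087, 1019.5 and 968 in S134A-GR cells under TGFβ1. The wt-GR libraries under TGFβ1 overlapped those of S134A-GR cells under vehicle, between the other groups. The MX1 log2 fold change of S134A-GR over wt-GR was −0.59 (SE 0.0617, adjusted p = 2.27e-06) under vehicle and −0.48 (SE 0.0617, adjusted p = 1.56e-05) under TGFβ1. That of MX1 for TGFβ1 over vehicle was −0.61 (SE 0.0617, adjusted p = 5.85e-06) in wt-GR and −0.51 (SE 0.0617, adjusted p = 4.21e-05) in S134A-GR cells. MX2, which restricts HIV, read 523, 603 and 594 in wt-GR cells under vehicle, 299, 343 and 267 in wt-GR cells under TGFβ1, 168, 198 and 159 in S134A-GR cells under vehicle and 88.5, 127 and 118 in S134A-GR cells under TGFβ1. No group overlapped another, and every S134A-GR library was below every wt-GR library. The MX2 log2 fold change of S134A-GR over wt-GR was −1.71 (SE 0.149, adjusted p = 3.44e-07) under vehicle and −1.45 (SE 0.149, adjusted p = 1.97e-06) under TGFβ1. That of MX2 for TGFβ1 over vehicle was −0.92 (SE 0.149, adjusted p = 0.000448) in wt-GR and −0.66 (SE 0.149, adjusted p = 0.00624) in S134A-GR cells. In a fit of the 2 S134A-GR groups alone, the MX2 fall had an adjusted p of 0.0583.

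IFIT1 binds viral RNA that lacks the cellular cap methylation, and 3 of the 4 IFIT genes fell in the same order of groups. IFIT1 read 2887, 3050.1 and 3187 in wt-GR cells under vehicle, 2019, 2171 and 1851 in wt-GR cells under TGFβ1, 1634, 1783 and 1633 in S134A-GR cells under vehicle and 1108, 978 and 970.0 in S134A-GR cells under TGFβ1. IFIT2 read 4113, 4396 and 4314 in wt-GR cells under vehicle, 2171, 2654 and 2549 in wt-GR cells under TGFβ1, 1862, 1806 and 1827 in S134A-GR cells under vehicle and 1079, 1113 and 994 in S134A-GR cells under TGFβ1. IFIT3, which stabilizes IFIT1, read 7192, 7735 and 7841 in wt-GR cells under vehicle, 4868, 5215 and 5212 in wt-GR cells under TGFβ1, 3864, 4153 and 3799.6 in S134A-GR cells under vehicle and 2889, 2937 and 2650.3 in S134A-GR cells under TGFβ1. In each of these genes the 4 groups were separate and stood in the order wt-GR vehicle, wt-GR TGFβ1, S134A-GR vehicle and S134A-GR TGFβ1. The 4 groups did not overlap in 9 of the 36 members, and the share of all genes with such groups was not computed. The IFIT1 log2 fold change of S134A-GR over wt-GR was −0.85 (SE 0.0705, adjusted p = 2.09e-07) under vehicle and −0.98 (SE 0.0705, adjusted p = 5.83e-08) under TGFβ1. That of IFIT1 for TGFβ1 over vehicle was −0.60 (SE 0.0705, adjusted p = 2.56e-05) in wt-GR and −0.73 (SE 0.0705, adjusted p = 4.48e-06) in S134A-GR cells. The IFIT2 log2 fold change of S134A-GR over wt-GR was −1.22 (SE 0.0681, adjusted p = 4.56e-09) under vehicle and −1.21 (SE 0.0681, adjusted p = 5.65e-09) under TGFβ1. That of IFIT2 for TGFβ1 over vehicle was −0.80 (SE 0.0681, adjusted p = 9.68e-07) in wt-GR and −0.79 (SE 0.0681, adjusted p = 1.44e-06) in S134A-GR cells. The IFIT3 log2 fold change of S134A-GR over wt-GR was −0.95 (SE 0.0525, adjusted p = 4.43e-09) under vehicle and −0.85 (SE 0.0525, adjusted p = 1.32e-08) under TGFβ1. That of IFIT3 for TGFβ1 over vehicle was −0.57 (SE 0.0525, adjusted p = 2.07e-06) in wt-GR and −0.48 (SE 0.0525, adjusted p = 1.53e-05) in S134A-GR cells. IFIT5 read 3050.2, 3412 and 3358 in wt-GR cells under vehicle, 2589.6, 2722 and 2635 in wt-GR cells under TGFβ1, 2876, 2949 and 2827 in S134A-GR cells under vehicle and 2643, 2471 and 2510.1 in S134A-GR cells under TGFβ1. Its differences were smaller, and the groups under TGFβ1 overlapped. The IFIT5 log2 fold change of S134A-GR over wt-GR was −0.18 (SE 0.0488, adjusted p = 0.00633) under vehicle and −0.06 (SE 0.0488, adjusted p = 0.342) under TGFβ1. That of IFIT5 for TGFβ1 over vehicle was −0.30 (SE 0.0488, adjusted p = 0.000435) in wt-GR and −0.18 (SE 0.0488, adjusted p = 0.0176) in S134A-GR cells. The IFIT5 fall in S134A-GR cells was lost without vehicle library 1 or 2 or TGFβ1 library 2 or 3 of that line (adjusted p = 0.0521 to 0.0697).

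**Figure D3:**
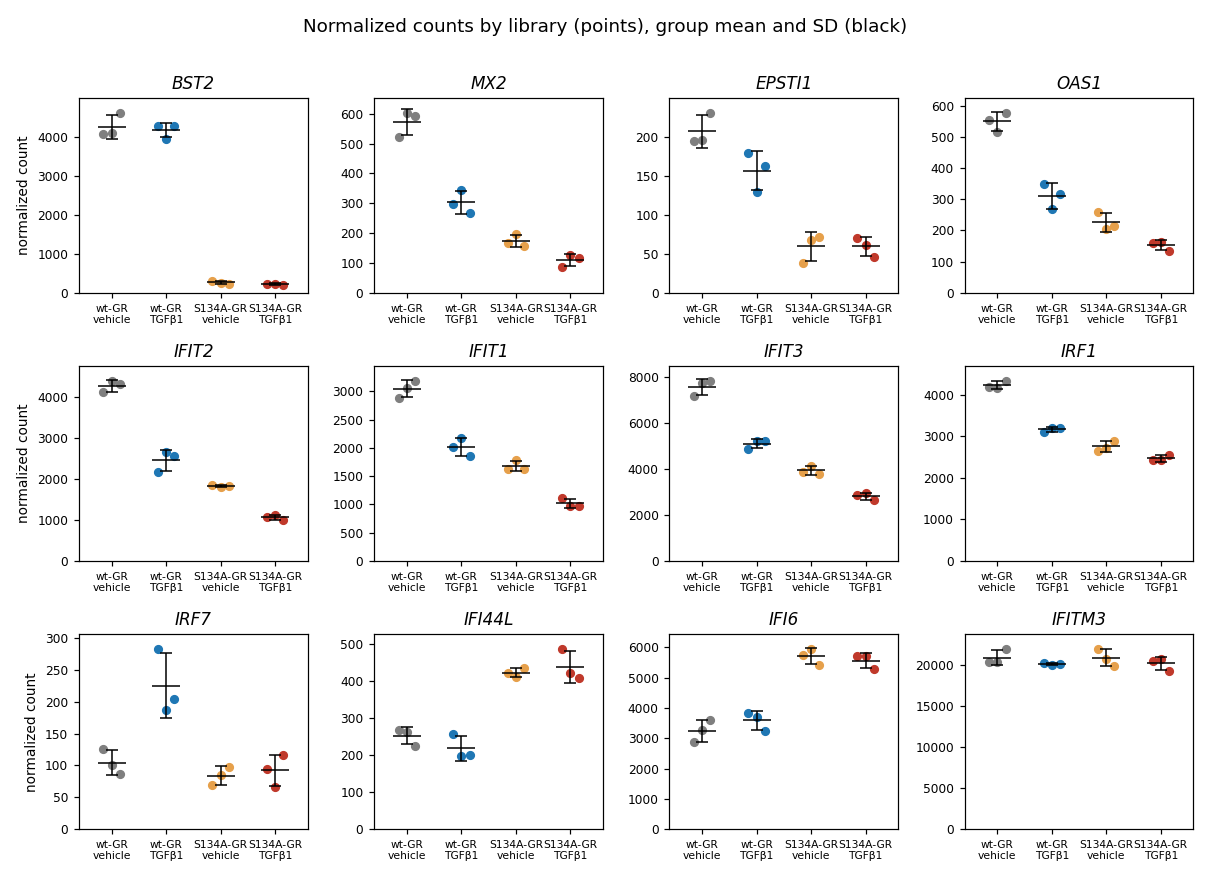
Normalized counts (y axes, from 0) of 12 members in each library (points) of the 4 groups (x axes), with the group mean and SD in black. BST2 is high in all 6 wt-GR libraries and low in all 6 of S134A-GR cells, IFIT1, IFIT2, IFIT3, MX2, OAS1 and IRF1 fall in 4 steps, IRF7 is raised in wt-GR cells under TGFβ1, and IFITM3 is level.

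Among membrane restriction factors, BST2 had the widest difference between the lines of any member and no called response to TGFβ1. BST2 read 4082, 4094 and 4626 in wt-GR cells under vehicle, 4296, 3962 and 4275 in wt-GR cells under TGFβ1, 303, 268 and 242 in S134A-GR cells under vehicle and 242, 239.9 and 211 in S134A-GR cells under TGFβ1. The lowest of the 6 wt-GR libraries stood at 3962 and the highest of the 6 S134A-GR libraries at 303. The BST2 log2 fold change of S134A-GR over wt-GR was −3.98 (SE 0.086, adjusted p = 6.57e-13) under vehicle and −4.17 (SE 0.086, adjusted p = 4.24e-13) under TGFβ1. That of BST2 for TGFβ1 over vehicle was −0.03 (SE 0.086, adjusted p = 0.862) in wt-GR and −0.23 (SE 0.086, adjusted p = 0.0863) in S134A-GR cells. Its 20 nearest genes tested on chromosome 19 had a median log2 fold change of −0.045 between the lines under vehicle. The IFITM proteins, which block fusion of virus with endosomes, moved less. IFITM1 was 675 ± 85.5 and 629 ± 39.6 in wt-GR cells under vehicle and TGFβ1 and 414 ± 29.6 and 357 ± 29.5 in S134A-GR cells, lower in S134A-GR cells at −0.70 (SE 0.104, adjusted p = 5.99e-05) under vehicle and −0.82 (SE 0.104, adjusted p = 1.53e-05) under TGFβ1. IFITM2 was 7325 ± 586 and 6805 ± 145 in wt-GR cells under vehicle and TGFβ1 and 6841 ± 53.9 and 6468 ± 234 in S134A-GR cells, and IFITM3 was 20936 ± 931 and 20152 ± 152 in wt-GR cells under vehicle and TGFβ1 and 20893 ± 1035 and 20219 ± 781 in S134A-GR cells. Neither was called in any comparison. Of the 75-base windows of IFITM1 6.5% match another locus, as do 7.3% of those of IFITM3 and 0% of those of IFITM2.

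SAMD9 and SAMD9L, neighbours on chromosome 7 that inhibit poxvirus and translation, behaved differently. SAMD9 read 4303, 4248 and 3321 in wt-GR cells under vehicle, 4078, 4452 and 4357 in wt-GR cells under TGFβ1, 3162, 3399 and 3465 in S134A-GR cells under vehicle and 4667, 4039 and 3769.8 in S134A-GR cells under TGFβ1. S134A-GR libraries under vehicle were below both TGFβ1 groups and overlapped wt-GR libraries under vehicle. The SAMD9 log2 fold change of S134A-GR over wt-GR was −0.23 (SE 0.0927, adjusted p = 0.0471) under vehicle and −0.05 (SE 0.0927, adjusted p = 0.685) under TGFβ1. That of SAMD9 for TGFβ1 over vehicle was 0.13 (SE 0.0927, adjusted p = 0.391) in wt-GR and 0.31 (SE 0.0927, adjusted p = 0.0309) in S134A-GR cells. SAMD9L read 2555, 2461 and 2214 in wt-GR cells under vehicle, 1817, 1842 and 1856 in wt-GR cells under TGFβ1, 2076, 2059 and 2207 in S134A-GR cells under vehicle and 1911, 1779.9 and 1808 in S134A-GR cells under TGFβ1. Libraries under TGFβ1 were below all vehicle libraries and overlapped between the lines. The SAMD9L log2 fold change of S134A-GR over wt-GR was −0.19 (SE 0.0559, adjusted p = 0.0118) under vehicle and −0.01 (SE 0.0559, adjusted p = 0.951) under TGFβ1. That of SAMD9L for TGFβ1 over vehicle was −0.39 (SE 0.0559, adjusted p = 0.000168) in wt-GR and −0.21 (SE 0.0559, adjusted p = 0.0192) in S134A-GR cells. The SAMD9 difference under vehicle was lost without any of 9 libraries (adjusted p = 0.0552 to 0.177) and its rise in S134A-GR cells without any of 5 (0.054 to 0.129). The SAMD9L difference under vehicle was lost without vehicle library 1 of wt-GR cells (0.0559), and its fall in S134A-GR cells without vehicle library 3 or TGFβ1 library 2 or 3 of that line (up to 0.09).

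ISG20, an exonuclease of single-stranded RNA, was 1700.5 ± 86.3 and 1716 ± 45.4 in wt-GR cells under vehicle and TGFβ1 and 1589 ± 34.2 and 1473 ± 166 in S134A-GR cells, and was called between the lines under TGFβ1 only (−0.23 (SE 0.0704, adjusted p = 0.0159)), a call lost without TGFβ1 library 1 of either line (adjusted p = 0.0547 and 0.0745). RSAD2 encodes viperin, which makes an antiviral nucleotide, and read 22.8, 7.40 and 13.7 in wt-GR cells under vehicle, 22.2, 13.2 and 24.4 in wt-GR cells under TGFβ1, 1.89, 0 and 1.78 in S134A-GR cells under vehicle and 1.90, 8.10 and 1.43 in S134A-GR cells under TGFβ1. All 6 wt-GR libraries were above the limit of detection of 3 reads, and 5 of the 6 S134A-GR libraries were under it. CMPK2, a mitochondrial nucleotide kinase and neighbour of RSAD2, was at 0 in 10 of 12 libraries and read 4.23 and 6.11 in the other 2, both of wt-GR cells. No fold is given for either gene.

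PARP9 and DTX3L form an ADP-ribosyltransferase and ubiquitin ligase complex and share a promoter region on chromosome 3. PARP9 read 1866, 1883 and 1853 in wt-GR cells under vehicle, 1351, 1363 and 1376 in wt-GR cells under TGFβ1, 1595, 1614 and 1601 in S134A-GR cells under vehicle and 1273, 1204 and 1298 in S134A-GR cells under TGFβ1. The 4 groups did not overlap, and treatment separated them more than line did. The PARP9 log2 fold change of S134A-GR over wt-GR was −0.22 (SE 0.0456, adjusted p = 0.000985) under vehicle and −0.12 (SE 0.0456, adjusted p = 0.048) under TGFβ1. That of PARP9 for TGFβ1 over vehicle was −0.45 (SE 0.0456, adjusted p = 5.43e-06) in wt-GR and −0.35 (SE 0.0456, adjusted p = 7.87e-05) in S134A-GR cells. DTX3L read 5909.8, 5450.3 and 4796 in wt-GR cells under vehicle, 3876, 4151 and 3845 in wt-GR cells under TGFβ1, 4741, 4660.0 and 4870.4 in S134A-GR cells under vehicle and 4289, 4037 and 3976 in S134A-GR cells under TGFβ1. Libraries under TGFβ1 were below those under vehicle in each line, and the lines overlapped. The DTX3L log2 fold change of S134A-GR over wt-GR was −0.17 (SE 0.0629, adjusted p = 0.0322) under vehicle and 0.05 (SE 0.0629, adjusted p = 0.537) under TGFβ1. That of DTX3L for TGFβ1 over vehicle was −0.44 (SE 0.0629, adjusted p = 0.000157) in wt-GR and −0.21 (SE 0.0629, adjusted p = 0.0284) in S134A-GR cells. The PARP9 difference between the lines under TGFβ1 was lost without any of 11 libraries (adjusted p up to 0.185), and for DTX3L the difference under vehicle was lost without any of 4 (up to 0.154) and the fall in S134A-GR cells without any of 5 (up to 0.0971).

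Among genes of the mitochondrion or of less certain function, EPSTI1, IFI44, IFI35 and XAF1 were lower and IFI6 and IFI44L higher in at least 1 comparison of the lines. EPSTI1, named for its induction in epithelial cells by stroma, read 194, 196 and 231 in wt-GR cells under vehicle, 179, 129 and 162 in wt-GR cells under TGFβ1, 38.6, 67.9 and 72.2 in S134A-GR cells under vehicle and 70.4, 61.8 and 46.5 in S134A-GR cells under TGFβ1. All S134A-GR libraries were below all wt-GR libraries, and the S134A-GR groups overlapped. The EPSTI1 log2 fold change of S134A-GR over wt-GR was −1.82 (SE 0.237, adjusted p = 1.68e-05) under vehicle and −1.39 (SE 0.237, adjusted p = 0.000218) under TGFβ1. That of EPSTI1 for TGFβ1 over vehicle was −0.41 (SE 0.237, adjusted p = 0.268) in wt-GR and 0.03 (SE 0.237, adjusted p = 0.961) in S134A-GR cells. The 20 nearest genes tested around EPSTI1 had a median of −0.53 under vehicle, lower than around any other member. IFI44L read 269, 263 and 225 in wt-GR cells under vehicle, 258, 196 and 199.6 in wt-GR cells under TGFβ1, 422, 409.5 and 435 in S134A-GR cells under vehicle and 487, 420.2 and 408 in S134A-GR cells under TGFβ1. Every S134A-GR library was above every wt-GR library. The IFI44L log2 fold change of S134A-GR over wt-GR was 0.74 (SE 0.121, adjusted p = 0.000135) under vehicle and 1.01 (SE 0.121, adjusted p = 8.63e-06) under TGFβ1. That of IFI44L for TGFβ1 over vehicle was −0.22 (SE 0.121, adjusted p = 0.243) in wt-GR and 0.05 (SE 0.121, adjusted p = 0.842) in S134A-GR cells. Its neighbour IFI44, 3.7 kb away on chromosome 1, went the other way, with 2645 ± 38.0 and 2736 ± 85.2 in wt-GR cells under vehicle and TGFβ1 and 1924 ± 56.1 and 1987 ± 163 in S134A-GR cells and log2 fold changes between the lines of −0.46 (SE 0.056, adjusted p = 9.16e-06) and −0.46 (SE 0.056, adjusted p = 9.12e-06).

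IFI6, a mitochondrial protein that opposes apoptosis, was 3242 ± 363 and 3593 ± 316 in wt-GR cells under vehicle and TGFβ1 and 5717 ± 266 and 5567 ± 247 in S134A-GR cells, with log2 fold changes between the lines of 0.82 (SE 0.0776, adjusted p = 7.64e-07) and 0.64 (SE 0.0776, adjusted p = 1.04e-05). IFI35 read 4129, 4255 and 4424 in wt-GR cells under vehicle, 3777, 3369 and 3735 in wt-GR cells under TGFβ1, 3688, 3627 and 3519 in S134A-GR cells under vehicle and 3157, 3626 and 3167 in S134A-GR cells under TGFβ1. The wt-GR vehicle libraries were above the other 9. The IFI35 log2 fold change of S134A-GR over wt-GR was −0.24 (SE 0.0587, adjusted p = 0.00321) under vehicle and −0.13 (SE 0.0587, adjusted p = 0.083) under TGFβ1. That of IFI35 for TGFβ1 over vehicle was −0.24 (SE 0.0587, adjusted p = 0.0103) in wt-GR and −0.13 (SE 0.0587, adjusted p = 0.167) in S134A-GR cells. Without TGFβ1 library 2 of wt-GR cells its fall there was −0.18 and was no longer called (adjusted p = 0.053). XAF1, a binding partner of the apoptosis inhibitor XIAP, was 887 ± 46.4 and 997 ± 13.1 in wt-GR cells under vehicle and TGFβ1 and 799.8 ± 45.2 and 865 ± 56.1 in S134A-GR cells, and its difference under TGFβ1 of −0.21 (SE 0.0683, adjusted p = 0.0222) was lost without any of 4 libraries (0.0535 to 0.0787). IFI27, often among the most induced genes after interferon, was between 0 and 6.52 in every library, and 100% of its 75-base windows also match alternate scaffolds.

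Levels per length, in normalized counts per kb of the canonical transcript, spanned a wide range. In wt-GR cells under vehicle IFITM3 was highest at 34266, followed by IFITM2 at 7281 and ISG15 at 5363, and IFI44L was lowest of the 36 at 43.3. BST2 stood at 4263 in wt-GR cells, above IFI6 at 3992. In S134A-GR cells under vehicle the order was turned, with BST2 at 271 and IFI6 at 7041. The annotation used in counting is not given, so the length used here may differ from the counted one.

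**Figure D4:**
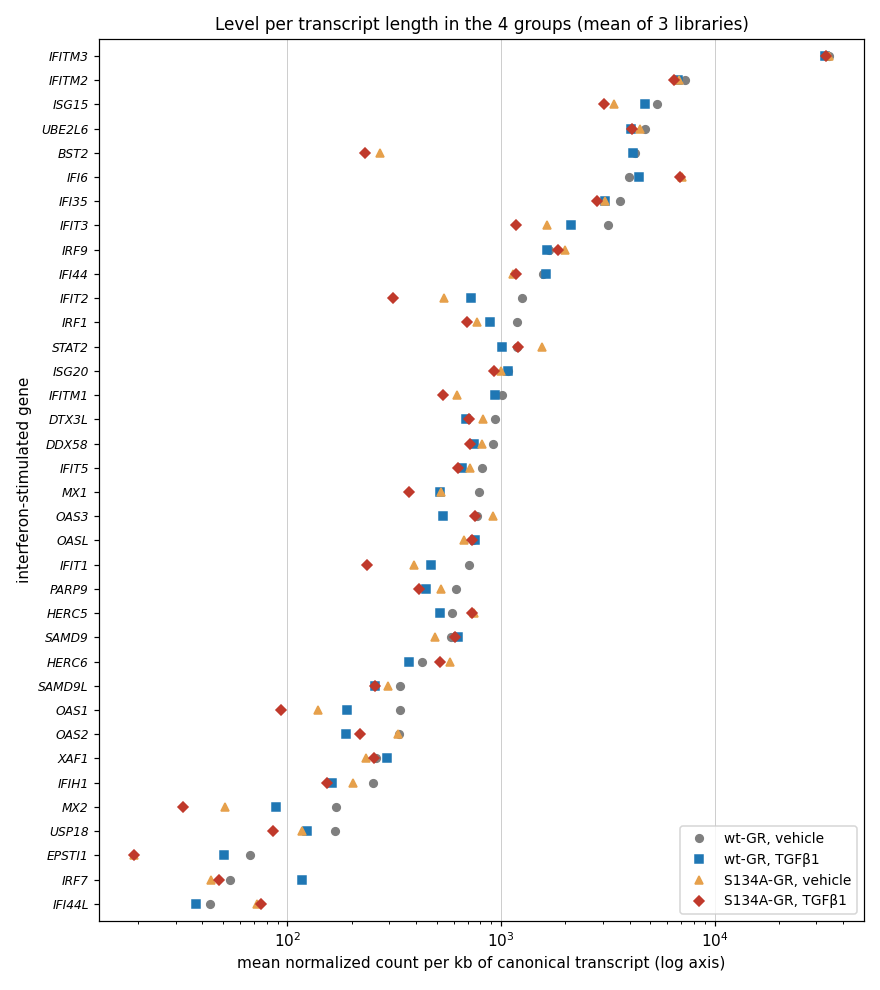
Mean level of the 36 members (y axis) in normalized counts per kb of canonical transcript (x axis, log scale) in the 4 groups, each symbol being the mean of 3 libraries. IFITM3 is at 34266 in wt-GR cells under vehicle and level in all groups, and the symbols of BST2 split by line.

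By position, 22 of the 39 members lie within 100 kb of another, in clusters on 9 chromosomes. The IFIT genes on chromosome 10 were all lower in S134A-GR cells under vehicle, whereas the OAS genes on chromosome 12 and the IFI44 pair on chromosome 1 were divided. Medians of the 20 nearest genes tested, other members not counted, ran from −0.53 to 0.28 under vehicle. Around the IFIT genes they were 0.1 and 0.12, around the OAS1 to OAS2 stretch 0.20, around MX1 and MX2 −0.35 and around the IFI44 pair −0.33.

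An ISRE match stood in promoters of genes of either direction. Of the members with a fold change and a promoter entry, 12 of 18 that were lower in S134A-GR cells under vehicle held a match, and so did 4 of 7 that were higher. With TGFβ1 in wt-GR cells, 8 of 17 that fell held a match and 10 of 12 that were not called did, among them ISG15, IFI6, BST2 and IFITM3. The median log2 fold change with TGFβ1 in wt-GR cells was −0.20 for the 18 members with a match and −0.24 for the 11 without. MX2, OAS2 and IFIT2, among the strongest falls there (−0.92, −0.81 and −0.80), had no promoter entry and enter neither counts nor medians. The same holds for USP18, which fell, IRF7, which rose, and IFITM2 and OASL, which were not called. The search took only a fixed gap within 250 bases. It left out GAAA pairs with a shorter gap, as in OAS1, DDX58 and IFI35, which fell. For DTX3L, which also fell, the window ended inside the match of PARP9. The counts and medians therefore depend on the search rule, are over a small list and were not tested.

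The pathway upstream of these genes was read from a list of 31 ligands, receptors, kinases, sensors and restraints, of which 24 were in the files and 23 had a mean of at least 20. The only listed ligand in the files was IFNL1, at a mean of 0.89, under the limit of detection. Interferon genes outside the list were not looked up. Between the lines under vehicle, 16 of 23 were lower in S134A-GR cells and 3 higher, where 31.8% and 30.0% of all genes with a mean of at least 20 were. Under TGFβ1 15 were lower and 2 higher, where 30.7% and 28.0% were. With TGFβ1, 7 fell and none rose in wt-GR cells, where 12.1% and 14.0% of such genes did, and 7 fell and 3 rose in S134A-GR cells, where 10.8% and 12.7% did. The calls with TGFβ1 went from 7 to 4 in wt-GR cells without vehicle library 2 or TGFβ1 library 2 or 3 of that line, and from 10 to 6 in S134A-GR cells without vehicle library 1 or TGFβ1 library 1 of that line.

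The receptor genes were mostly lower in S134A-GR cells. IFNAR1 and IFNAR2, the chains of the type I interferon receptor, had log2 fold changes under vehicle of −0.24 (SE 0.0652, adjusted p = 0.00703) and −0.28 (SE 0.0669, adjusted p = 0.00268). IFNLR1, which is particular to type III interferon, read 171, 192 and 175 in wt-GR cells under vehicle, 194, 226 and 201 in wt-GR cells under TGFβ1, 94.3, 79.1 and 77.5 in S134A-GR cells under vehicle and 70.4, 61.8 and 72.2 in S134A-GR cells under TGFβ1. Every S134A-GR library was below every wt-GR library, with log2 fold changes of −1.10 (SE 0.142, adjusted p = 1.64e-05) and −1.59 (SE 0.142, adjusted p = 4.91e-07). IL10RB, its partner chain, was at −0.35 (SE 0.0604, adjusted p = 0.00023) and IFNGR1 at −0.51 (SE 0.047, adjusted p = 6.28e-07) under vehicle. IFNGR2 read 194, 262 and 273 in wt-GR cells under vehicle, 317, 323 and 305 in wt-GR cells under TGFβ1, 565, 339 and 312 in S134A-GR cells under vehicle and 227, 283 and 302 in S134A-GR cells under TGFβ1. Library 1 of S134A-GR cells under vehicle stood apart from the other 11, and the log2 fold change of 0.70 (SE 0.197, adjusted p = 0.00841) under vehicle had the opposite sign from that under TGFβ1, −0.23 (SE 0.197, adjusted p = 0.378).

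Of the kinases, JAK1 was lower in S134A-GR cells at −0.50 (SE 0.0596, adjusted p = 7.32e-06) under vehicle and −0.34 (SE 0.0596, adjusted p = 0.000312) under TGFβ1. JAK2 was lower there under vehicle at −0.63 (SE 0.0947, adjusted p = 6.33e-05) but was not called under TGFβ1 at −0.04 (SE 0.0947, adjusted p = 0.74). TYK2 was higher in S134A-GR cells at 0.24 (SE 0.0517, adjusted p = 0.00113) under vehicle and 0.20 (SE 0.0517, adjusted p = 0.00449) under TGFβ1. STING1, the adaptor for cytosolic DNA, was 4015 ± 119.9 and 3517 ± 210.0 in wt-GR cells under vehicle and TGFβ1 and 1868 ± 119 and 1519 ± 103 in S134A-GR cells, with log2 fold changes of −1.10 (SE 0.0626, adjusted p = 5.22e-09) and −1.21 (SE 0.0626, adjusted p = 2.47e-09).

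A further list of 33 interferon-inducible genes outside the members had 28 with a mean of at least 20. Between the lines under vehicle 10 were lower and 4 higher in S134A-GR cells, 50.0% in all against 61.8% of all genes with a mean of at least 20, and under TGFβ1 10 were lower and 5 higher, against 58.7% called. With TGFβ1, 6 fell and 5 rose in wt-GR cells, and 3 fell and 3 rose in S134A-GR cells, where 26.1% and 23.5% of such genes were called. The calls with TGFβ1 went from 11 to 7 in wt-GR cells without vehicle library 2 or TGFβ1 library 1 of that line, and from 6 to 3 in S134A-GR cells without vehicle library 3 of that line. NLRC5, a transactivator of MHC class I genes, was 2754 ± 125 and 3237 ± 185 in wt-GR cells under vehicle and TGFβ1 and 5979 ± 368 and 6424 ± 436 in S134A-GR cells, higher in S134A-GR cells at 1.12 (SE 0.0616, adjusted p = 4.19e-09) under vehicle.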

How the data were processed

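RNA-seq libraries were prepared from MDA-MB-231 cells with a TruSeq RNA kit and sequenced in 75-base paired-end mode. What the authors deposited is a signal per gene symbol and library, a normalized count. They had trimmed the reads with Trimmomatic and aligned them by HISAT2 to hg38, featureCounts (Subread) gave the counts, and size factors from DESeq2 (1.22.2 in the submitters' processing notes) scaled them. The gene annotation, the strand setting and the versions of HISAT2 and featureCounts are not given in the sources used here. Reads may therefore be shared with genes on the opposite strand for IRF1, IRF9, MX1, OAS1 and XAF1. IFITM1, IFITM2, IRF9, IFI6 and DDX58 share exon bases with a gene on the same strand, which strand cannot separate.

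A step worth 1 read divided 100% of each library's values to within 0.01 read, and this gave back the reads. Genes with at least 10 reads over the 12 libraries were tested (18579). Log2 of the normalized count plus 1, on which changes of weakly expressed genes come out too small, went into limma 3.58.1 (R 4.3.3) with 4 group means, a trend in the moderation and Benjamini-Hochberg adjustment over all genes tested. Calls used an FDR under 0.05. A second rule also asked for a change of at least 1 log2 unit either way. Errors are the SD of 3 libraries or the standard error (SE) of the fold change. No replicate pair was as close as counting noise alone would make it (chi-square over its degrees of freedom, 9.06 to 46.2). The fit was tested on simulated data with known differences between the lines, and the outcome is not reported here. No response to TGFβ1 and no difference of responses was simulated, so that test does not cover them.

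Every member that passed the second rule between the lines, or the first with TGFβ1, was given in every library, and the other members by mean or fold change. Some genes of the further lists enter their counts and are not reported here by name. Members, pathway lists and markers were chosen with earlier results of these data known. Positions, transcript lengths and neighbours came from GENCODE v44 (GRCh38), promoters from RefSeq, and shared 75-base windows from blastn 2.17.0. Alternatives were edgeR 4.0.16 and DESeq2 1.42.0 on the recovered reads, other pseudocounts, filters and scaling, a replicate block, fits of the compared groups alone, and each library left out.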

Additional observations from a re-analysis of the deposited data

How the results depend on the processing

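No member value changed direction in a called comparison under any alternative, over 180 gene by comparison values of which 93 were called. With all libraries kept, the number of called members moved by over 1.5 times only for the difference of responses, where DESeq2 called 1 member (IRF1) in place of 0. With each library left out, the called members numbered 25 to 29 between the lines under vehicle, 21 to 24 under TGFβ1, 18 to 22 for TGFβ1 in wt-GR cells, 14 to 18 in S134A-GR cells and 0 for the difference of responses. Small counts moved more. Members past 1 log2 unit for TGFβ1 in wt-GR cells numbered 1 with all libraries, 0 without vehicle library 3 or TGFβ1 library 1 of that line and 2 without its TGFβ1 library 2. Those that rose numbered 1 in wt-GR cells and 2 without vehicle library 3, and 1 in S134A-GR cells, 2 without TGFβ1 library 3 and 0 without any other library of that line. Those higher between the lines under TGFβ1 went from 8 to 5 without TGFβ1 library 2 of S134A-GR cells. Of the calls, 24 of 28, 19 of 25, 17 of 22 and 10 of 18 were kept under every alternative. Fits of only the groups compared lost 10 calls, the most of any alternative that kept all libraries. Libraries that shared a replicate number did not deviate together (mean r 0.0144, range −0.0546 to 0.135 over 18 pairs and 14425 genes), so the numbers do not pair them. With the replicate block, 28, 24, 21, 17 and 0 members were called in the 5 comparisons, and no member was gained. Scaling by TMM gave 28, 25, 21, 18 and 0. Depth limits statements on RSAD2, CMPK2 and IFI27, and precision for IRF7 and EPSTI1, which had the fewest reads of the genes with full statistics.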
